A study of Mus musculus with 7 samples.

Results

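The genes described here encode the machinery that copies DNA. A list of 50 genes was fixed by name, with earlier results of these data known. It runs from the proteins that mark and license replication origins to those that unwind, copy, seal and repackage the DNA. All 50 had a count in at least 1 library of a table of 15588 genes. RNA sequencing had been applied to sorted CD4 T cells, the helper class of T lymphocytes. They came from mice of an orthotopic hepatocellular carcinoma transplant model, that is, liver cancer placed in the liver itself. The 5 day 7 libraries came from mice in which the model had been set up for 7 days and the 2 day 0 libraries from mice in which it had been set up for 0 days; both carry the label of tumour-infiltrating cells. The strain, sex and age of the mice, the tumour line, the sorting gate, any pooling of animals and the tissue sorted at day 0 are not stated in the sources used. Whether each library came from its own animal is likewise not stated, and p-values therefore reflect the spread among these libraries, which may be technical. Each library carries the digit that ends its column name, so that the day 7 libraries are 1, 2, 3, 5 and 6 while those of day 0 are 2 and 3, and values follow in that order.

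Before a cell can copy its genome, the origin recognition complex and the loading factors Cdc6 and Cdt1 place rings of MCM proteins on DNA, a step called licensing. In S phase the kinase made of Cdc7 and Dbf4 helps to turn these rings into active helicases by adding Cdc45 and the GINS complex, and DNA polymerases then copy both strands behind a sliding clamp, PCNA, which the RFC complex loads. Resting T cells carry little of several of these proteins, and many of the genes are transcribed under E2F transcription factors when an activated T cell enters the cycle. In RNA from a whole sorted population, more dividing cells and more RNA per dividing cell cannot be told apart.

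Total counts ranged from 21910818 to 28333855 per library. Levels are CPM, counts scaled to a common library size with TMM factors, and a mean is given with its SD over 5 day 7 and 2 day 0 libraries. A log2 change is day 7 against day 0 with its standard error, from edgeR's quasi-likelihood test, and a gene is said to have risen or fallen only at a Benjamini-Hochberg adjusted p below 0.05 over all 12929 genes tested. The T cell label was checked with 7 genes (Cd3d, Cd3e, Cd3g, Cd2, Cd5, Lck and Cd4), whose summed level was 3318 to 4309 CPM at day 7 and 3263 to 3464 CPM at day 0. Day 7 libraries 5 and 6 stood apart in markers of other cells, given here as plain CPM of the library totals. Cd8a and Cd8b1, which mark CD8 T cells, summed to 16.8, 18.3, 11.1, 204 and 177 CPM in the day 7 libraries, against 3.61 and 2.29 CPM in the day 0 libraries. The sum of 7 myeloid genes was 7.46, 18.3, 27.9, 229 and 119 CPM in the day 7 libraries, against 3.53 and 17.6 CPM in the day 0 libraries. Among lists whose groups did not overlap, 5 NK cell genes summed to 254 to 506 CPM at day 7 and 733 to 831 CPM at day 0, and 5 B cell genes to 11.9 to 41.97 CPM and 0.0411 to 6.60 CPM, with Ms4a1 at 0 in both day 0 libraries. The NK cell genes did not move together. Klrb1c was at 159 to 405 CPM at day 7 and 624 to 706 CPM at day 0 and Klre1 was also lower in every day 7 library, whereas Eomes was at 14.8 to 29.0 CPM at day 7 and 4.69 to 6.61 CPM at day 0. In an exact two-sided permutation test over 21 splits, whose smallest p is 0.0476, these 2 lists and the CD8 list gave p = 0.0952, 0.0476 and 0.0952. None of the 10 lists passed when adjusted over the lists, as the lowest adjusted p was 0.317. With so few splits a list can pass only if all 10 reach the smallest p, so this does not show that the groups held the same cells. The part of other cells in the changes of the replication genes was not tested.

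By day 7 the CD4 T cells carried more transcripts of 9 of the 50 replication genes, and none fell. The 9 were Orc1 and Cdc6, which act in licensing, Mcm3, Mcm5, Mcm6 and Mcm7, subunits of the helicase ring, Lig1, the ligase that joins Okazaki fragments, and Clspn and Timeless, which protect stalled forks. Among all 12929 genes tested 1.07% rose and 0.472% fell. The median log2 change of the 50 genes was 0.92, against 0.04 over all genes tested, and 46 of the 50 had a positive value, as had 53.1% of all genes tested. Orc1, whose fold has only a lower bound, is the largest change either way, so these medians do not rest on its value. In 25 of the 50 every day 7 library lay above both day 0 libraries, as it did in 7.53% of all genes tested. The same number, 25, was higher at an unadjusted p under 0.05, as were 6.29% of all genes tested. Because the 50 genes were chosen with earlier results of these data known, these shares are no independent evidence about the list. The mean log2(CPM + 1) over the 50 genes was 5.56, 5.55, 5.49, 5.56 and 5.53 in the day 7 libraries, against 4.69 and 4.55 in the day 0 libraries. The 5 day 7 libraries were thus closer to each other on this mean than to either day 0 library, also libraries 5 and 6.

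The calls were sensitive to the test. On simulated counts of this design DESeq2 made more false calls than edgeR or limma-voom but found more of the 2-fold changes. The spread of those counts came from edgeR's fit, which may favour edgeR. There edgeR missed most 2-fold changes, so a gene not called may still have changed. On the real counts DESeq2 called 19 of the 50 genes higher (4.93% of all genes tested) and limma-voom 2, Mcm3 and Lig1 (0.24%). Without day 7 libraries 5 and 6, 8 were called higher (0.975%), of which 7 were among the 9. Ranges of adjusted p below cover 18 alternative settings, other tests and left-out libraries included. The calls of Cdc6, Mcm5 and Clspn held without any 1 library, and each of the other 6 was lost without at least 1. Where a day 0 library was left out, the other was assumed to vary like the day 7 libraries, which also holds for calls gained that way below. In GENCODE M21 the exons of 18 of the 50 genes share bases with another gene. For overlaps on opposite strands, the reads cannot be told apart where counting ignored strand. Orc5, Pole2 and Rpa1 share bases with a gene on the same strand, where strand does not separate the reads.

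**Figure D1:**
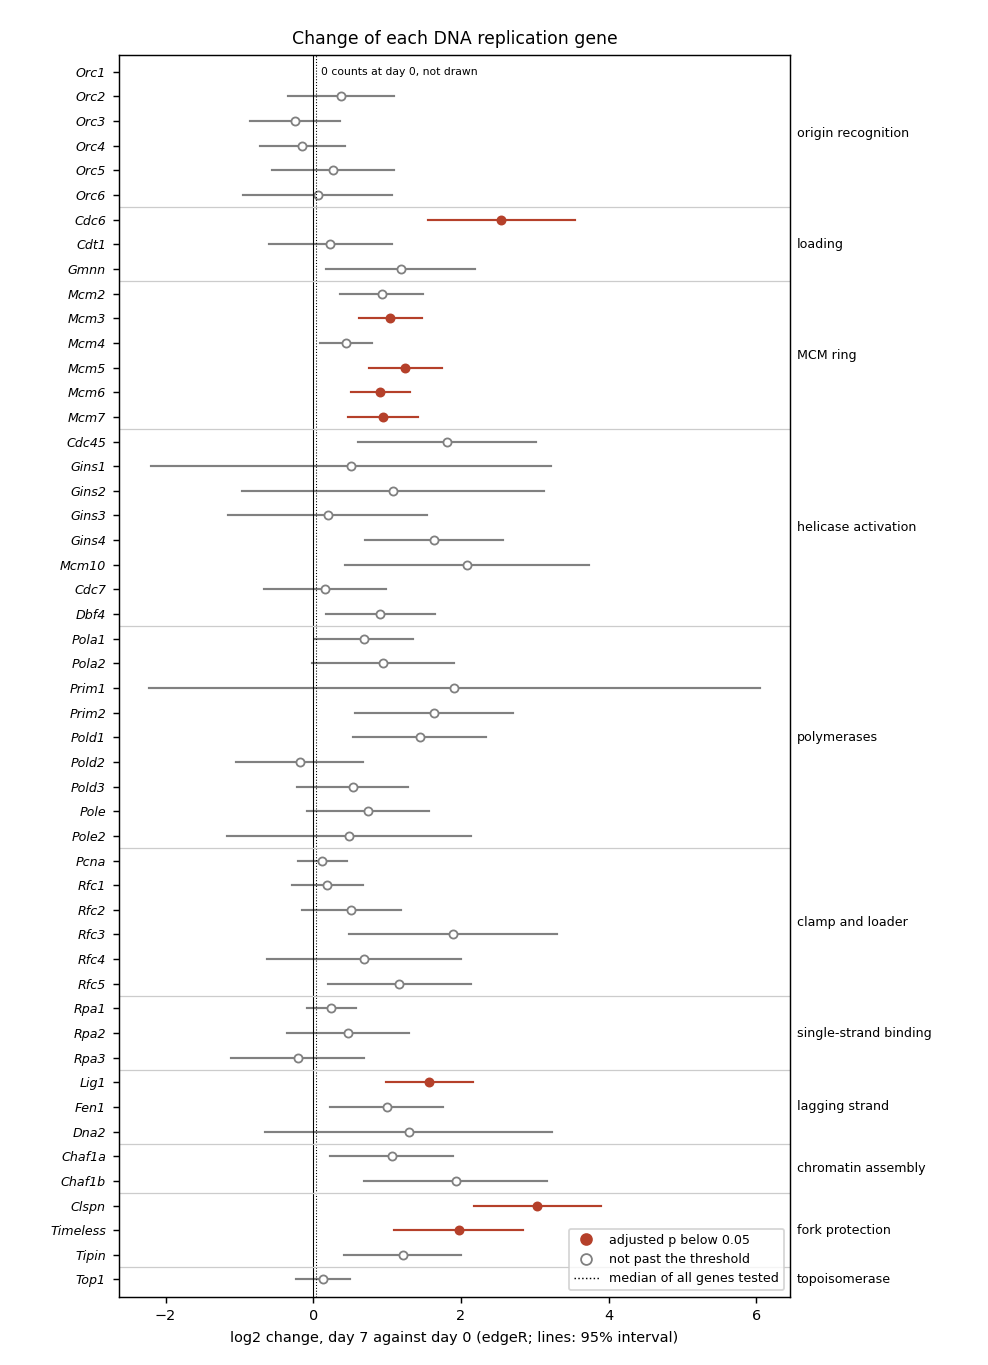
The log2 change of each of the 50 genes at day 7 against day 0 is plotted with its 95% interval, grouped by role; filled red points passed an adjusted p of 0.05 and the dotted line is the median of all genes tested (0.04). The rises lie in the loading, MCM ring, lagging-strand and fork protection groups, whereas Pcna, Rpa1 and Top1 have narrow intervals that include 0. Orc1, which rose, is not drawn because it had 0 counts at day 0.

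Promoter sequence was read for 41 of the 50 genes, including all 9 that rose, from RefSeq windows of GRCm38.p6 that run from 250 bases before to 50 after each annotated start. Gins1, Gins2, Gins4, Mcm4, Rfc2, Prim2, Pole, Tipin and Gmnn had no window analysed here. These windows were searched on both strands for the E2F-type letters TTTCCCGC, TTTCGCGC, TTTGCCGC and TTTGGCGC, because E2F factors are known regulators of S phase genes. At least 1 window of 8 of the 9 genes that rose held such letters, the exception being Timeless. Of the 32 others with a window, 8 held them (Orc3, Cdt1, Gins3, Pola1, Pold1, Pold3, Pole2 and Rfc3). Among 10291 tested genes with a window, 4.58% held them, and the share of all 32851 windows was 2.26%. Of all 113 tested genes with a window that rose, 22 held them (19.5%). In a second list of replication-associated genes, described below, 3 of the 8 that rose held them. Read the other way, 22 of the 471 tested genes with these letters rose (4.67%), 8 of them replication genes of the list, against 91 of the 9820 without (0.927%). The windows of 5 genes that rose and of Pcna, which did not pass, are shown 5′ to 3′ on the gene's strand so that the position and number of the matches can be compared. Timeless, which rose without the letters, and Orc3, which holds them and did not rise, are not shown. Capitals mark the E2F-type letters, and in Mcm5 and Mcm6 a match on one strand shares bases with a match on the other.
Mcm3 (chr1:20820263-20820562, minus strand): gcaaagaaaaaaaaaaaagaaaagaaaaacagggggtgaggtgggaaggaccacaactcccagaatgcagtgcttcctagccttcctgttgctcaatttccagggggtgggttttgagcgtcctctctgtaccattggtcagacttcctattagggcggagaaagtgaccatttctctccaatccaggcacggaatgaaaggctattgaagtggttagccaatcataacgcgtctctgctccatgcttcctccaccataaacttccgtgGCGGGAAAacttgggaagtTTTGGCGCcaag
Mcm5 (chr8:75109259-75109558, plus strand): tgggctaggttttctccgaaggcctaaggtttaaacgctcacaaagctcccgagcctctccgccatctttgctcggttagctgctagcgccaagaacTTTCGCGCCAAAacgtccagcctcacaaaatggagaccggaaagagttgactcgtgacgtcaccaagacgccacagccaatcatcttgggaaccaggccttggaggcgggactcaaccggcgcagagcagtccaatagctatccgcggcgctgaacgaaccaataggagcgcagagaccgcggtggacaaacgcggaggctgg
Mcm6 (chr1:128359656-128359955, minus strand): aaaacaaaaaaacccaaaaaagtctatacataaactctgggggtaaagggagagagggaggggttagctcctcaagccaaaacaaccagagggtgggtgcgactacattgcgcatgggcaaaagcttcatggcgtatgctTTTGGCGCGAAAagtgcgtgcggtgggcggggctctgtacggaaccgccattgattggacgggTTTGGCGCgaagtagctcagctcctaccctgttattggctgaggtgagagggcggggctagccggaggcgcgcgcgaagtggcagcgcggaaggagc
Cdc6 (chr11:98907901-98908200, plus strand): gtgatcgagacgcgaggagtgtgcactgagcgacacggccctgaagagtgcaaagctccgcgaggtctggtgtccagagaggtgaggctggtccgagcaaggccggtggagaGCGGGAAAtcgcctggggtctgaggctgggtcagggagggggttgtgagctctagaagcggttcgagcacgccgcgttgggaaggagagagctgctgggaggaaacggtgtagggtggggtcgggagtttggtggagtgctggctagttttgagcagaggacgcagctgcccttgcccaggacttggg
Clspn (chr4:126556730-126557029, plus strand): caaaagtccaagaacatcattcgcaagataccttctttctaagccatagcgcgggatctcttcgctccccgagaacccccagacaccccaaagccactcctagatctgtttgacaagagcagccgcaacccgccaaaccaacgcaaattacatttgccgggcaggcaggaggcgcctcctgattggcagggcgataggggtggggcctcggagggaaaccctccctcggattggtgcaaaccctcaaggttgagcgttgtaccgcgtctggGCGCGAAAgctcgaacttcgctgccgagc
Pcna (chr2:132253131-132253430, minus strand): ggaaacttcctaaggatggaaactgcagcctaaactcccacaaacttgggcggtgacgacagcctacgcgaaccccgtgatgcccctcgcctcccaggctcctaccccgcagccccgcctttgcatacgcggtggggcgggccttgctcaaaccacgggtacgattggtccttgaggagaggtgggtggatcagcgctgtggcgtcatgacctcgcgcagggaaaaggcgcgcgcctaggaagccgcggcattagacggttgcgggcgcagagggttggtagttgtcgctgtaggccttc
Mcm5 holds 2 overlapping matches, Mcm6 holds 3 and Cdc6 holds 1 before the start, Mcm3 has 2 and Clspn 1 after it, and the window of Pcna has none. The 16 genes with these letters had a median log2 change of 0.99 and the 25 without one of 0.68, a difference given without a test. Over the 41 genes, other short motifs of cell cycle promoters were less set apart from all tested genes. The CCAAT box letters, CCAAT, stood in a window of 23 of the 41 genes (56.1%) and of 42.9% of tested genes, and the cell cycle homology region letters, TTTGAA or TTCGAA, in 9 (22%) and 17.1%. Of the 9 replication genes that rose, 6 held the first and 1 the second. Among all 113 tested genes with a window that rose, 60.2% held the first and 37.2% the second, against 42.7% and 16.9% of those that did not rise. These shares were not tested. These matches describe letters and not binding, and a window without a match says nothing about a factor.

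**Figure D2:**
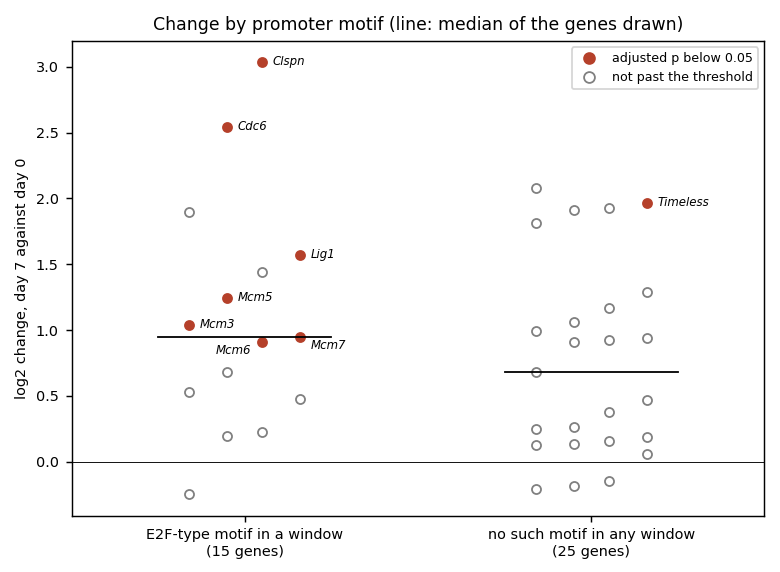
Each point is the log2 change at day 7 against day 0 of a replication gene with a promoter window, split by whether any of its windows holds E2F-type letters (15 genes drawn) or not (25 genes); lines are medians (0.95 and 0.68) and filled points passed an adjusted p of 0.05. Of the 8 filled points, 7 lie among genes with the letters and 1, Timeless, among those without. Orc1 is not drawn, because its change has no finite estimate from 0 counts at day 0.

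In the origin recognition complex, which marks origins throughout the cell cycle, 1 of 6 genes rose. Orc1 (Entrez 18392), the subunit whose level is known to swing with the cycle, was measured at 9.94, 2.14, 7.98, 9.61 and 13.8 CPM in the day 7 libraries, against 0 and 0 CPM in the day 0 libraries. No count was seen at day 0, so the groups did not overlap (edgeR adjusted p = 0.0432). The day 7 mean of 8.70 ± 4.25 CPM was 153-fold above a floor of 3 counts over the day 0 group (0.0569 CPM). That floor covers counting error only if each fragment was counted once, and it does not cover the spread between libraries, so the fold itself may be smaller. Its exons share 11.9% of their bases with the opposite-strand gene Gm12743. Leaving out any 1 library other than day 7 library 2 ended its call (adjusted p between 0.0855 and 0.161). Over the alternatives its adjusted p ran from 9.19e-07 to 0.229.

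The other 5 subunits did not pass, with log2 changes from -0.25 for Orc3 to 0.37 for Orc2. Orc3, which had the highest level per kilobase of exon among them at day 7, was measured at 47.4, 67.8, 99.5, 47.5 and 72.99 CPM in the day 7 libraries, against 84.1 and 74.9 CPM in the day 0 libraries. The groups overlapped, and its log2 change had a 95% interval from -0.85 to 0.36. Orc4 averaged 61.7 ± 12.1 CPM at day 7, against 68.3 ± 4.81 CPM at day 0. Orc2, Orc5 and Orc6 averaged 53.9 ± 17.7, 39.4 ± 9.03 and 26.8 ± 12.97 CPM at day 7, against 41.5 ± 0.267, 32.7 ± 18.5 and 25.6 ± 2.27 CPM at day 0. Orc6, which is loosely attached to the complex, was below both day 0 libraries in day 7 libraries 1 and 2 and above both in the other three.

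Of the 3 genes that load the ring or restrain its loading, Cdc6 rose. Cdc6 (Entrez 23834), an ATPase that joins the origin complex to recruit MCM rings, was at 49.7, 47.1, 21.2, 47.3 and 46.1 CPM in the day 7 libraries, against 8.73 and 5.78 CPM in the day 0 libraries. Every day 7 library lay above both day 0 libraries, and day 7 library 3 was the lowest of its group. The log2 change was 2.54 ± 0.48 (edgeR adjusted p = 0.00346), and over the alternatives the adjusted p ran from 2.12e-08 to 0.257, the higher end with limma-voom. Cdt1, its partner in loading, was measured at 57.5, 47.9, 40.1, 21.01 and 27.7 CPM in the day 7 libraries, against 34.4 and 31.9 CPM in the day 0 libraries. Day 7 libraries 5 and 6 were below both day 0 libraries and libraries 1, 2 and 3 above them, and the log2 change of 0.23 ± 0.40 did not pass (edgeR adjusted p = 0.984). Gmnn, which encodes geminin, the inhibitor of Cdt1, averaged 41.3 ± 20.05 CPM at day 7, against 18.2 ± 4.18 CPM at day 0 and did not pass (log2 change 1.19 ± 0.49, edgeR adjusted p = 0.351). Its lowest day 7 value, 13.5 CPM in library 6, was below both day 0 values.

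The helicase ring, built of Mcm2 to Mcm7, was the group with the most genes risen, 4 of 6, beside 1.07% of all genes tested. In all 6 every day 7 library lay above both day 0 libraries, as in 7.53% of all genes tested. Mcm6 (Entrez 17219) was at 255, 220.0, 205, 355 and 286 CPM in the day 7 libraries, against 139 and 142 CPM in the day 0 libraries. Its highest values were in libraries 5 and 6, and the log2 change was 0.91 ± 0.19 (edgeR adjusted p = 0.0110). Mcm3 (Entrez 17215) was the most even of the 4, at 189, 193, 154, 161 and 152 CPM in the day 7 libraries, against 72.1 and 93.2 CPM in the day 0 libraries. Its groups did not overlap, with a log2 change of 1.04 ± 0.21 (edgeR adjusted p = 0.00576). Mcm7 (Entrez 17220), whose exons share 10.8% of their bases with the opposite-strand gene Ap4m1 in GENCODE M21, was at 118, 177, 167, 125 and 131 CPM in the day 7 libraries, against 63.5 and 85.6 CPM in the day 0 libraries. Its log2 change was 0.95 ± 0.23 (edgeR adjusted p = 0.0324). Mcm5 (Entrez 17218), which with Mcm2 forms the gate of the ring, was at 118, 125, 171, 106 and 156 CPM in the day 7 libraries, against 55.01 and 59.2 CPM in the day 0 libraries. With a log2 change of 1.24 ± 0.24 (edgeR adjusted p = 0.00420) it had the largest estimate of the ring.

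Mcm2 and Mcm4 did not pass. Mcm4, where the Cdc7 kinase is known to act, was measured at 201, 191, 199, 227 and 232 CPM in the day 7 libraries, against 155 and 154 CPM in the day 0 libraries. The day 0 values were close to each other and below every day 7 value, and the log2 change was 0.44 ± 0.17 (edgeR adjusted p = 0.295). Mcm2 averaged 148 ± 48.6 CPM at day 7, against 77.6 ± 12.3 CPM at day 0, with day 7 values between 91.1 CPM in library 6 and 224 CPM in library 3 (log2 change 0.93 ± 0.27, edgeR adjusted p = 0.112). It was called without day 7 library 6 (edgeR adjusted p = 0.0188) and without libraries 5 and 6 (0.0154), within a range of 0.00386 to 0.511 over the alternatives. The call of Mcm3 was lost without day 0 library 2 (adjusted p = 0.151, range 4.54e-07 to 0.151), as was that of Mcm6 (0.0593, range 0.000106 to 0.0761). Mcm6 was also not called without day 7 libraries 5 and 6 together (0.0519). Mcm7 was no longer called when day 0 library 2 or day 7 library 2, 3 or 5 was left out (adjusted p of 0.411, 0.107, 0.0867 and 0.0537, range 0.000333 to 0.411), while Mcm5 lost its call with limma-voom (0.0590, range 8.61e-07 to 0.0590).

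Because each ring holds 1 copy of every subunit, the levels were also set side by side per kilobase of merged exon (GENCODE M21, since the annotation used for counting is not stated in the sources used). The per-kilobase level ran from 39.1 ± 7.90 CPM for Mcm5 to 60.4 ± 13.7 CPM for Mcm6 at day 7, a 1.54-fold span, and from 16.5 ± 0.858 CPM for Mcm5 to 43.01 ± 0.133 CPM for Mcm4 at day 0, a 2.60-fold span. At day 7 Mcm4, Mcm6 and Mcm3 (58.5 ± 5.05, 60.4 ± 13.7 and 56.1 ± 6.45 CPM per kilobase) were within each other's SD. Of the summed per-kilobase level of the ring, Mcm4 made up 19.1, 17.3, 17.1, 20.5 and 21.8% in the day 7 libraries, against 27.6 and 24.1% in the day 0 libraries. All day 7 libraries were thus below both day 0 libraries for the share of Mcm4. The share of Mcm5 was 11.5, 11.8, 15.2, 9.97 and 15.2% in the day 7 libraries, against 10.2 and 9.63% in the day 0 libraries, above both day 0 values in all day 7 libraries but library 5. All subunits other than Mcm4 overlapped between the groups in share. These shares were not tested.

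**Figure D3:**
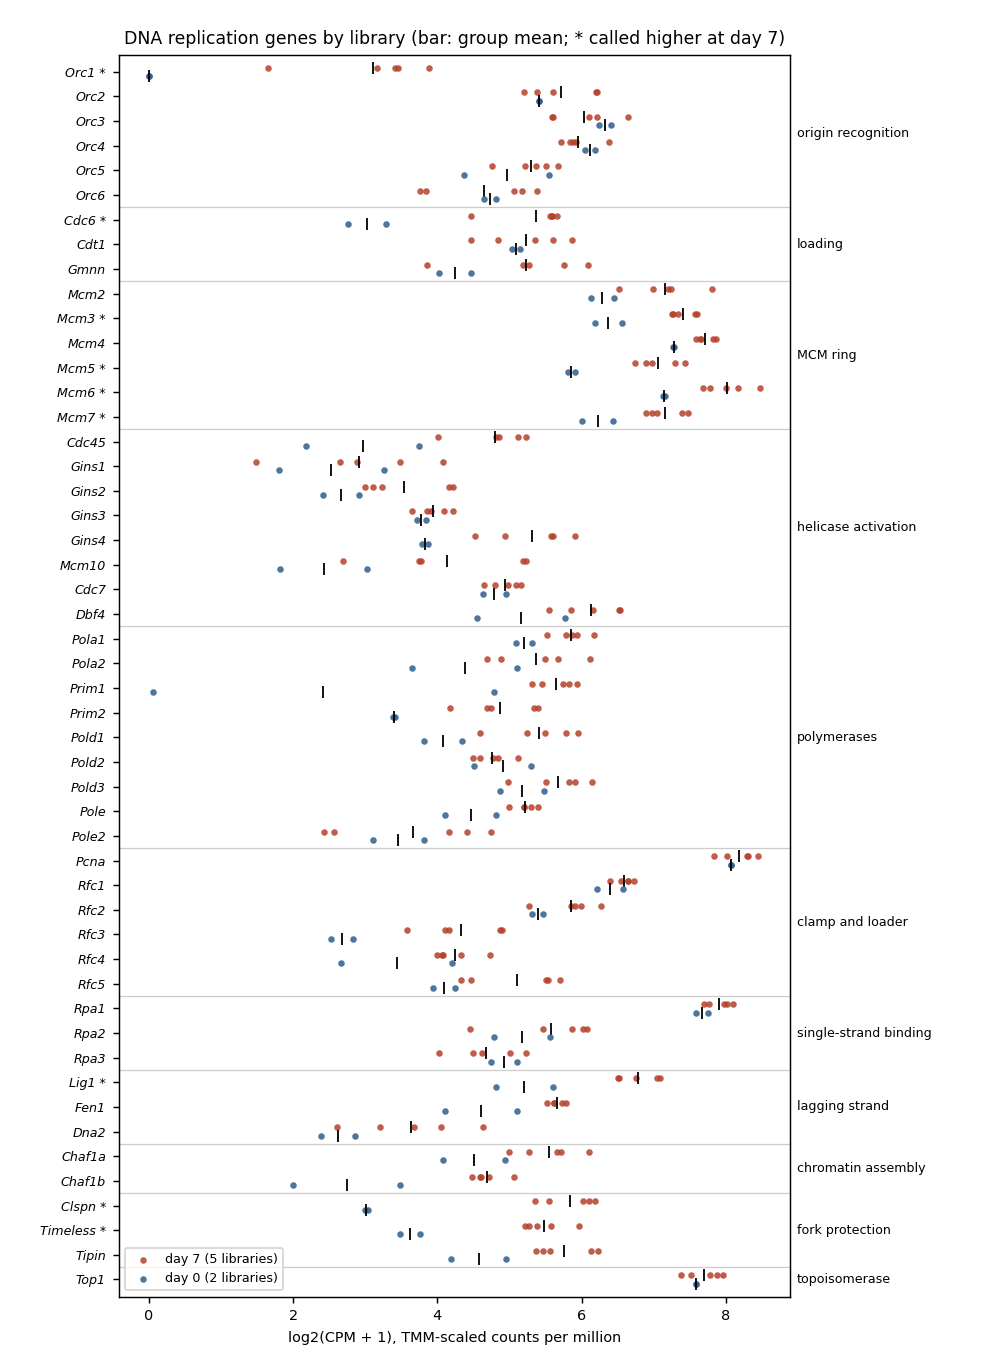
Points give log2(CPM + 1) of each of the 50 genes in every library, with the 5 day 7 libraries above the 2 day 0 libraries in each row and a bar at each group's mean. The 6 MCM ring genes lie at 106 to 355 CPM at day 7 except for Mcm2 in library 6 (91.1 CPM), each to the right of its day 0 points, while Orc2 to Orc6, Rpa3, Pold2 and Top1 overlap.

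Of the 8 genes that turn the loaded ring into a moving helicase, none passed, although the estimates were all above 0 (median log2 change 0.99). At an unadjusted edgeR p under 0.05, 4 were higher, as were 6.29% of all genes tested. DESeq2 called 2 of the 8 higher, Cdc45 and Gins4, beside 4.93% of all genes tested. Dbf4, the regulatory subunit of the Cdc7 kinase, was measured at 90.9, 45.9, 56.98, 70.4 and 91.9 CPM in the day 7 libraries, against 53.6 and 22.4 CPM in the day 0 libraries. The groups overlapped, as day 0 library 2 lay above day 7 library 2, and the log2 change was 0.91 ± 0.36 (edgeR adjusted p = 0.319, and 0.0479 without day 0 library 2, in a range of 0.0479 to 0.771). Cdc7 itself averaged 29.9 ± 4.35 CPM at day 7, against 26.9 ± 4.39 CPM at day 0, with a log2 change of 0.15 ± 0.40.

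Cdc45, which binds the ring to complete the helicase, averaged 28.1 ± 8.32 CPM at day 7, against 7.99 ± 6.30 CPM at day 0, with no overlap between the groups (log2 change 1.81 ± 0.59, edgeR adjusted p = 0.163). Its day 0 values were 3.53 and 12.4 CPM, and it was called without day 0 library 3 (0.0321, range 0.0108 to 0.714). Among the 4 GINS subunits Gins4 averaged 41.01 ± 14.9 CPM at day 7, against 13.2 ± 0.582 CPM at day 0 (log2 change 1.63 ± 0.46, edgeR adjusted p = 0.0779), and its groups did not overlap. Gins1, Gins2 and Gins3 had lower levels per kilobase of exon than Gins4 at day 7, with log2 changes of 0.52 ± 1.31, 1.08 ± 0.99 and 0.19 ± 0.65, and the exons of Gins2 share 70.7% of their bases with the opposite-strand gene Gse1. Mcm10, a factor for helicase activation, varied most among the day 7 libraries of all 50 genes. It ranged from 5.47 CPM in library 1 to 36.7 CPM in library 6, against 2.53 and 7.17 CPM in the day 0 libraries.

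None of the 9 polymerase and primase genes passed, with a median log2 change of 0.74. With DESeq2 Prim2 and Pold1 were called higher, as were 4.93% of all genes tested. At an unadjusted edgeR p under 0.05, 3 of the 9 were higher, as were 6.29% of all genes tested. Pola1, the catalytic subunit of polymerase alpha, which starts each new strand, was measured at 57.3, 60.5, 44.9, 71.4 and 53.9 CPM in the day 7 libraries, against 38.8 and 32.96 CPM in the day 0 libraries. Every day 7 library was above both day 0 libraries by a small margin, and the log2 change was 0.68 ± 0.32 (edgeR adjusted p = 0.470). Pola2, its partner, averaged 43.2 ± 17.7 CPM at day 7, against 22.5 ± 15.4 CPM at day 0. Prim1, the catalytic primase subunit, averaged 49.9 ± 9.06 CPM at day 7, against 26.5 CPM in day 0 library 2 and 0.0357 CPM in day 0 library 3. The day 0 libraries thus disagreed, the log2 change was 1.91 ± 1.63 (edgeR adjusted p = 0.828), and Prim1 was called higher without day 0 library 2 (adjusted p = 2.85e-11, range 2.85e-11 to 0.907), a call that rests on the other day 0 library alone. Prim2, the other primase subunit, averaged 29.7 ± 10.2 CPM at day 7, against 9.55 ± 0.133 CPM at day 0, with no overlap (log2 change 1.64 ± 0.52, edgeR adjusted p = 0.151).

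Pold1, the catalytic subunit of the lagging-strand polymerase delta, averaged 43.7 ± 14.8 CPM at day 7, against 16.1 ± 4.32 CPM at day 0 (log2 change 1.44 ± 0.44, edgeR adjusted p = 0.122). It was called without day 7 library 6 (0.0459, range 0.00563 to 0.508). Its accessory subunits Pold2 and Pold3 had log2 changes of -0.18 ± 0.42 and 0.53 ± 0.36. Pole, the catalytic subunit of the leading-strand polymerase epsilon, averaged 36.4 ± 3.73 CPM at day 7, against 21.8 ± 7.73 CPM at day 0, with a log2 change of 0.74 ± 0.40, and Pole2 averaged 14.4 ± 9.49 CPM at day 7, against 10.3 ± 3.80 CPM at day 0, with 0.48 ± 0.80. In 5 of the 9 genes the groups did not overlap, as in 7.53% of all genes tested.

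Pcna, the sliding clamp that tethers polymerases to DNA and is widely used as a marker of dividing cells, did not pass. It was measured at 349, 258, 229, 312 and 315 CPM in the day 7 libraries, against 268 and 269 CPM in the day 0 libraries. Both day 0 values lay inside the day 7 range, and the log2 change was 0.12 ± 0.16 (95% interval from -0.21 to 0.46, edgeR adjusted p = 0.941). It had the highest level of the 50 genes per kilobase of exon, 193 ± 31.8 CPM at day 7 and 177 ± 0.647 CPM at day 0. GENCODE M21 lists 2 processed pseudogenes of Pcna, so how reads were shared among these copies is uncertain. The loader of the clamp had 5 genes on the list, and none of them passed. Rfc3 averaged 20.2 ± 7.92 CPM at day 7, against 5.44 ± 0.934 CPM at day 0 and Rfc5 36.2 ± 14.95 CPM at day 7, against 16.2 ± 2.58 CPM at day 0, both without overlap (log2 changes 1.89 ± 0.69 and 1.17 ± 0.47, edgeR adjusted p of 0.252 and 0.336). DESeq2 called Rfc3 higher (adjusted p = 0.0102), within a range of 0.0102 to 0.573 over the alternatives. Rfc1, Rfc2 and Rfc4 had log2 changes of 0.19 ± 0.23, 0.51 ± 0.32 and 0.68 ± 0.64 and overlapped.

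The single-strand binding complex RPA coats unwound DNA in replication and in repair, and none of its 3 genes passed. Rpa1, the largest subunit, was measured at 252, 218, 207, 273 and 258 CPM in the day 7 libraries, against 192 and 215 CPM in the day 0 libraries. The groups overlapped, and the log2 change was 0.25 ± 0.16 (95% interval from -0.09 to 0.58). Rpa2 and Rpa3 averaged 50.4 ± 18.8 and 25.7 ± 8.30 CPM at day 7, against 36.4 ± 13.7 and 29.6 ± 5.30 CPM at day 0, with log2 changes of 0.47 ± 0.40 and -0.21 ± 0.44. Top1, the topoisomerase that relaxes DNA ahead of forks and of transcribing polymerases, was measured at 166, 219, 183, 249 and 235 CPM in the day 7 libraries, against 191 and 192 CPM in the day 0 libraries. Day 7 libraries 1 and 3 were below both day 0 libraries and the others above, with a log2 change of 0.13 ± 0.18 (95% interval from -0.23 to 0.50).

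Of the 3 genes that finish the lagging strand, Lig1 rose. Lig1 (Entrez 16881) was measured at 89.9, 90.4, 107, 132 and 135 CPM in the day 7 libraries, against 27.01 and 47.5 CPM in the day 0 libraries. Every day 7 library was above both day 0 libraries, libraries 5 and 6 were the highest, and the log2 change was 1.57 ± 0.29 (edgeR adjusted p = 0.00254). The call was lost without day 0 library 2 (adjusted p = 0.0619, range 2.59e-07 to 0.0619). Fen1, the nuclease that trims flaps before ligation, was at 45.1, 52.00, 54.2, 48.1 and 48.1 CPM in the day 7 libraries, against 16.2 and 33.6 CPM in the day 0 libraries. Its day 7 values were the most even of all 50 genes (coefficient of variation 7.21%) and lay above both day 0 values, which differed from each other. The log2 change of 0.99 ± 0.37 did not pass (edgeR adjusted p = 0.278), and 78.8% of the exon bases of Fen1 are shared with the opposite-strand gene Gm10143. Dna2, a nuclease for long flaps, averaged 12.9 ± 7.23 CPM at day 7, against 5.26 ± 1.44 CPM at day 0 and did not pass.

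Chaf1a and Chaf1b, subunits of the assembly factor that places histones on new DNA, did not pass but did not overlap between the groups. Chaf1a was measured at 31.00, 67.6, 37.7, 49.4 and 51.7 CPM in the day 7 libraries, against 29.7 and 15.9 CPM in the day 0 libraries, with a log2 change of 1.06 ± 0.40 (edgeR adjusted p = 0.284). Its exons share 48.6% of their bases with the opposite-strand gene Ubxn6. Chaf1b averaged 25.1 ± 4.28 CPM at day 7, against 6.61 ± 5.11 CPM at day 0 (log2 change 1.93 ± 0.60, edgeR adjusted p = 0.137, with 0.0482 without day 0 library 2, range 0.00358 to 0.707).

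In the fork protection group 2 of 3 genes rose, and its median log2 change of 1.97 was the highest of the 11 roles. Clspn (Entrez 269582), which encodes claspin, the mediator that passes a stalled-fork signal to the checkpoint kinase Chk1, was measured at 40.1, 68.04, 64.2, 71.7 and 45.6 CPM in the day 7 libraries, against 7.19 and 6.96 CPM in the day 0 libraries. The lowest day 7 value was far above both day 0 values, and the log2 change was 3.03 ± 0.42 (edgeR adjusted p = 0.000105). Its adjusted p over the alternatives ran from 1.63e-18 to 0.137, the higher end with limma-voom, and it stayed below 0.05 without any 1 library. Timeless (Entrez 21853), which travels with the fork, was at 61.4, 40.7, 46.9, 37.7 and 36.2 CPM in the day 7 libraries, against 12.6 and 10.2 CPM in the day 0 libraries. All day 7 values exceeded both day 0 values, with a log2 change of 1.97 ± 0.42 (edgeR adjusted p = 0.0118). That call was lost without day 0 library 3 (adjusted p = 0.122, range 3.22e-07 to 0.150). Tipin, which binds Timeless, was at 68.98, 73.9, 46.3, 40.4 and 43.3 CPM in the day 7 libraries, against 17.3 and 29.9 CPM in the day 0 libraries. The groups did not overlap, day 7 libraries 1 and 2 were the highest, and the log2 change of 1.21 ± 0.38 did not pass (edgeR adjusted p = 0.148).

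Set side by side, the roles differed in how far they moved, which is described here without a test. The mean log2(CPM + 1) of the loading genes lay between 4.75 and 5.87 in the day 7 libraries, against 4.30 and 3.94 in the day 0 libraries. For the MCM ring it lay between 7.36 and 7.54 in the day 7 libraries, against 6.42 and 6.63 in the day 0 libraries, and for helicase activation between 4.27 and 4.69 in the day 7 libraries, against 3.39 and 3.64 in the day 0 libraries. In these 3 groups every day 7 library lay above both day 0 libraries. The same held for the polymerases, the clamp and loader, lagging strand, chromatin assembly and fork protection. For loading the separation rests on Cdc6, as Cdt1 and Gmnn both lay below both day 0 libraries in day 7 library 6. The polymerases lay between 5.07 and 5.38 in the day 7 libraries, against 4.55 and 3.78 in the day 0 libraries, and the clamp and its loader between 5.27 and 5.94 in the day 7 libraries, against 5.07 and 4.95 in the day 0 libraries. The means of origin recognition lay between 4.91 and 5.38 in the day 7 libraries, against 4.73 and 4.45 in the day 0 libraries, where Orc1 alone of the 6 genes was called. Without Orc1, which had no count at day 0, the mean of the other 5 genes was 5.20, 5.64, 5.83, 5.44 and 5.53 in the day 7 libraries, against 5.68 and 5.34 in the day 0 libraries, so the groups overlapped and the separation of this role rests on Orc1. Single-strand binding lay between 5.59 and 6.43 in the day 7 libraries, against 5.97 and 5.88 in the day 0 libraries, and its groups overlapped, as did those of Top1. The median log2 change by role was 1.19 for loading, 0.94 for the ring, 0.99 for activation, 0.74 for polymerases, 0.60 for the clamp and loader and 0.16 for origin recognition. It was 1.29 for the lagging strand, 1.49 for chromatin assembly, 1.97 for fork protection, 0.25 for single-strand binding and 0.13 for Top1. Genes called and not called stood side by side within the loading and ring groups, and no polymerase or clamp gene was called by edgeR. Gins4, Prim2 and Pold1 were not called, although their estimates (1.63, 1.64 and 1.44) were above that of any ring gene. Their standard errors (0.46, 0.52 and 0.44) were also larger than those of the ring genes (0.17 to 0.27). Calls therefore do not rank the roles by size of change.

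**Figure D4:**
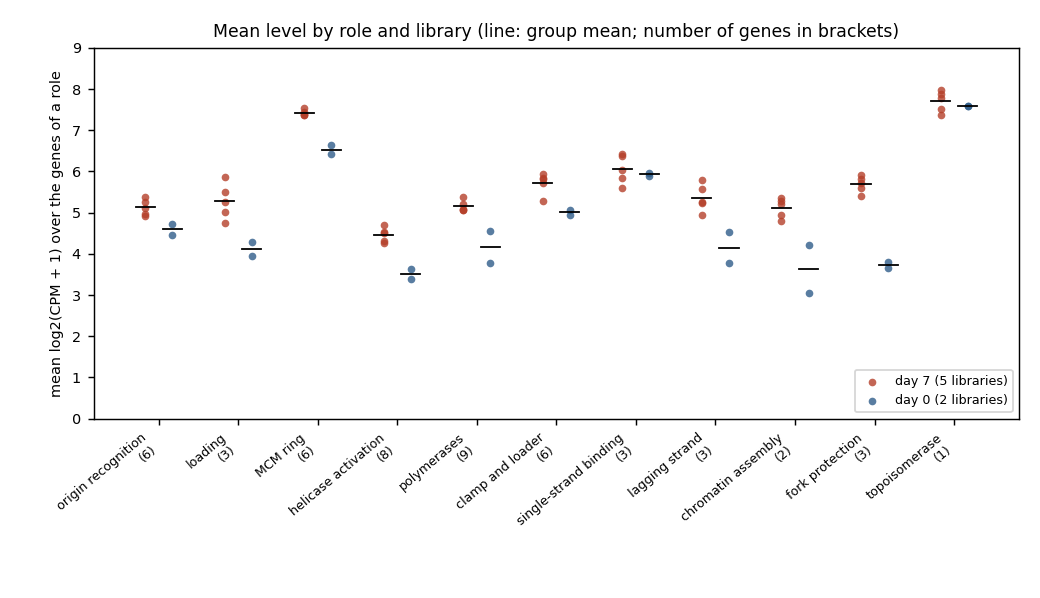
Each point is the mean log2(CPM + 1) over the genes of a role in 1 library, with day 7 left of day 0, a line at each group's mean and the number of genes in brackets. In 9 of the 11 roles all 5 day 7 libraries lie above both day 0 libraries, while single-strand binding and topoisomerase overlap. Origin recognition is among the 9 only through Orc1 and loading only through Cdc6.

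Within day 7 the libraries did not share 1 order of replication levels. Each library had the highest value of between 7 genes (library 5) and 13 genes (library 6) of the 50, and the lowest of between 6 (library 5) and 13 (library 3). Libraries 5 and 6 were both above libraries 1, 2 and 3 in 11 of the 50 genes, as they were in 14.5% of all genes tested, and both below in 6, as in 12.8%. Among the 11 were Mcm4, Mcm6, Lig1, Chaf1b and Top1, and the 6 were Orc2, Cdt1, Mcm2, Gins1, Timeless and Tipin. Of the ring genes, Mcm2 was on the lower side and Mcm4 and Mcm6 on the upper. The count on the lower side was near the share over all genes tested, and neither count was tested. The coefficient of variation over the 5 day 7 libraries had a median of 28.3% over the 50 genes and ran from 7.21% for Fen1 to 70.5% for Mcm10.

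**Figure D5:**
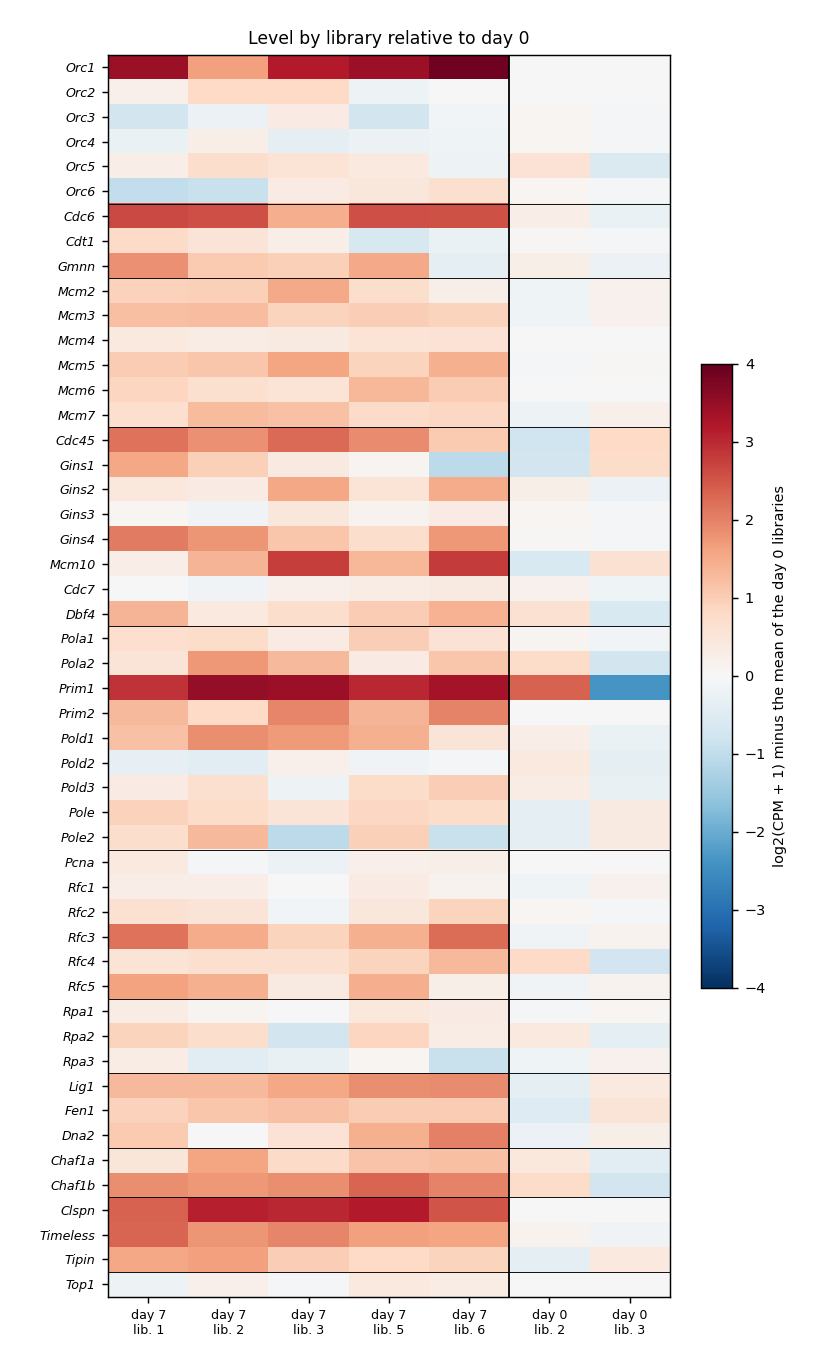
Colour gives log2(CPM + 1) of each gene in each library minus the mean of the 2 day 0 libraries, with the 5 day 7 libraries left of the day 0 libraries and lines between roles. Clspn, Cdc6, Timeless and Chaf1b are red in all 5 day 7 libraries, Prim1 differs between the day 0 libraries, and Pcna, Rpa1 and Top1 stay near white.

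A second list, also chosen with earlier results of these data known, held 46 genes that work beside the replication machinery but are not on the list of 50. Of these 8 rose (Top2a, Rrm1, Pclaf, Rrm2, Uhrf1, Dut, Dtl and Asf1b), none fell, and the median log2 change was 0.64, beside 1.07% risen and a median of 0.04 over all genes tested. Asf1b (edgeR adjusted p = 0.0499) lost its call in 14 of the 18 alternatives, among them every left-out library (range 0.000432 to 0.425). Dut (0.0312) lost it in 8, among them 5 of the 7 single libraries left out, day 0 libraries 2 and 3 and day 7 libraries 2, 5 and 6 (range 5.57e-05 to 0.332). Top2a, the topoisomerase that untangles replicated DNA, was at 419, 400.2, 402, 569.7 and 564 CPM in the day 7 libraries, against 132 and 104 CPM in the day 0 libraries. Every day 7 value was above both day 0 values, with a log2 change of 2.0 ± 0.18 (edgeR adjusted p = 4.24e-07). Rrm1, the large subunit of the enzyme that makes deoxynucleotides, was at 171, 160.0, 199.8, 150.0 and 254 CPM in the day 7 libraries, against 62.9 and 49.5 CPM in the day 0 libraries (log2 change 1.73 ± 0.24). Pclaf, which encodes a small protein that binds PCNA, was at 154, 163, 171, 159 and 214 CPM in the day 7 libraries, against 30.7 and 30.7 CPM in the day 0 libraries. Its log2 change was 2.49 ± 0.23 (edgeR adjusted p = 4.24e-07), beside 0.12 ± 0.16 for Pcna itself, and this difference was not tested.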

How the data were processed

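RNA was measured in sorted mouse CD4 T cells labelled as tumour-infiltrating, with 5 day 7 and 2 day 0 libraries. The tissue sorted at day 0 is not stated. The authors deposited whole-number counts per gene for 15588 genes; CASAVA 1.8, HISAT2 2.0.5 and featureCounts 1.5.0-p3 are named in the submitters' processing notes, while the genome build, annotation and strand setting are not stated in the sources used. Between 72.4% and 78.1% of counts from 2 to 200 were even numbers, so a fragment may have been counted more than once, and counts halved and rounded up were tried. Columns were assigned to groups by their day, since the digits that end their names differ from the numbering of the titles. All values come from 1 table and no row lacked a gene name.

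After filterByExpr and TMM scaling (factors between 0.9883 and 1.01), genes were tested with edgeR 4.0.16's robust quasi-likelihood test in R 4.3.3 over 12929 genes, with Benjamini-Hochberg adjustment at a threshold of 0.05, with a common dispersion of 0.974. Alternatives used other scaling, filters, DESeq2 1.42.0, limma 3.58.1 (voom), no robust estimation and left-out libraries. The fits were checked on simulated counts, where false calls were more frequent with DESeq2 than with edgeR or limma-voom. The spread of these counts was taken from edgeR's fit, changes were planted only in genes above a set mean level, and edgeR missed most of the 2-fold changes. Marker sums used log2(sum + 1) and an exact permutation test. Total counts of 21910818 to 28333855 set the precision, and floors of 3 counts cover counting error only, and that only if each fragment was counted once. The 50 genes, their roles, the second list and the marker lists were chosen with earlier results of these data known. CPM in every library are given for the genes past the threshold, at most 4 per role, and for the gene with the highest mean CPM among those not past it in each role, and for at most 3 genes of the second list. Exon lengths and overlaps come from GENCODE M21 and promoter windows from RefSeq.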

Additional observations from a re-analysis of the deposited data

Results flagged for a closer look

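Gaps between libraries were looked for in 60 sets of 5 day 7 values, those of the 50 genes and of 10 marker list sums. In 2 of the replication genes 1 library lay far from the other 4. Chance gives such a gap in about 1 in 20 sets, so 2 are no more than chance would give. Orc4 stood at 82.6 CPM in day 7 library 2 and at 51.3 to 60.0 CPM in the other day 7 libraries. Cdc6 stood at 21.2 CPM in day 7 library 3 and at 46.1 to 49.7 CPM in the other day 7 libraries, and the low value was above both day 0 libraries.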

How the results depend on the processing

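Of the 50 replication genes, 9 were called under the other 3 scalings and with counts halved, 12 with no filter on low counts, 8 with a minimum mean of 5 CPM and 8 without robust estimation. DESeq2 called 19, limma-voom 2 and limma-voom with sample weights 3. With any 1 library left out the number ran from 7 to 10. Over all genes 199 were called (138 higher and 61 lower), against 375 with no filter (249 and 126), 830 with DESeq2 (638 and 192), 95 with limma-voom (31 and 64) and 128 with sample weights (46 and 82), so that limma-voom called more genes lower than higher. With any 1 library left out, 127 (without day 7 library 5) to 189 genes were called. Of the 46 genes of the second list 8 were called, against 17 with DESeq2, 5 with limma-voom and 5 with sample weights, and 6 to 7 with any 1 library left out. The cause of these differences was not tested. None of the 50 genes turned from a call in one direction to one in the other, 42 had a positive log2 change under every setting, 29 were called under none, and none of the 9 calls held under all 18. No marker list passed the adjusted threshold with either pseudocount, scaling or set of libraries tried, but the test could hardly have passed one. With any library left out, the smallest p of the exact test is above 0.05. With all libraries it is 0.0476, and a list passes only if all 10 lists reach it. These outcomes therefore say nothing about how stable the marker levels are. The median log2 change of all genes was 0.18 without either day 0 library, against 0.04 with both. No paired analysis was possible because the columns carry digits that differ from the numbering of the sample titles. With 2 day 0 libraries, 1 library can decide a call, and for genes of low level such as Orc1 the fold is only bounded.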
